A study of Mus musculus with 9 samples.

Results

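The ligands and receptors of axon guidance were measured in neural retina of mouse pups at postnatal day 4 (P4), with and without melanopsin, the photopigment encoded by Opn4. The members were chosen by a rule on gene symbols, with earlier results of these data known: ephrins, Eph receptors, class 3 to 7 semaphorins, plexins, neuropilins, Slits, Robo receptors, netrins and the netrin receptors Dcc, Neo1 and Unc5a to Unc5d. The rule found 69 of the 53280 genes of the count table, and all 69 also had values in the transcript table. Per the labels, the Opn4 knockout (Opn4KO) and wildtype (Opn4WT) pups were littermates from heterozygous parents, raised under about 300 lux and killed 6 to 7 h after lights on. A sample was a pool of 4 retinas of 2 animals of 1 genotype, with 5 pools of Opn4KO and 4 of Opn4WT, and its poly-A RNA was sequenced. The nature of the Opn4 allele, the strain and the sex of the pups are not given in these sources, nor is the litter of each pool.

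Axon guidance molecules are cell surface or secreted proteins that attract or repel growing axons and dendrites. Ephrins bind Eph receptors on neighbouring cells and set the map of ganglion cell axons in the brain. Semaphorins act through plexins, with neuropilins as coreceptors for most class 3 members, Slits through Robo receptors, and netrins through Dcc, Neo1 and the Unc5 receptors. In the retina, netrin guides ganglion cell axons out at the optic disc, and class 5 and class 6 semaphorins keep neurites within their layers of the inner plexiform layer. Several members also act in blood vessels, among them Robo4, Plxnd1, Unc5b and Ephb4.

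The pools held 65.5 M to 86.1 M counts (M, 1e6), and guidance genes took 0.440 to 0.482% of them. The design text states a mean depth of 42.7 M reads, and how the larger totals of the count table arose is not given in these sources. Opn4 itself measured 1.36 ± 0.29 counts per 1e6 counts (CPM; SD, n = 5) in knockout and 11.7 ± 0.28 CPM (SD, n = 4) in wildtype, and every library matched its label. The tissue label was met: the rod gene Nrl and the progenitor and amacrine gene Pax6 were measured in every pool, while 8 pigment epithelium markers together gave 47.2 to 93.4 CPM. Among fixed marker lists, edgeR at an adjusted p under 0.05 placed 15 of 22 genes of progenitors and the cell cycle lower in knockout and 1 higher, 9 of 11 rod genes higher, and 5 of 7 red blood cell genes lower. Of all tested genes, 1.34% were higher and 2.25% lower. Knockout pools 1 and 2 stood apart by lens markers (list level 0.76 and 0.62 on the log2 scale relative to all pools, against -0.31 to -0.06 in the other 7), and wildtype pool 3 by red blood cell markers (1.16, against -0.50 to 0.52). The lens list level rested on crystallins: Cryaa was at 4.653 and 3.285 CPM in knockout pools 1 and 2, against at most 0.7374 CPM elsewhere. Mip (1.019 and 0.7501 CPM) and Bfsp1 (2.274 and 2.237 CPM) were not raised there. Wildtype pool 1 had 1.056 CPM of Mip, and wildtype pool 3 had 2.603 CPM of Bfsp1. In whole retina, fewer cells of a type and less RNA per cell cannot be told apart, which holds for every value below.

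No guidance ligand or receptor passed the test of a difference between the genotypes. Of 68 members with enough counts to be tested, 0 passed an adjusted p of 0.05 (edgeR quasi-likelihood test, Benjamini-Hochberg adjustment over 21150 genes), where 3.59% of all tested genes did (1.34% higher and 2.25% lower in knockout). At an unadjusted p under 0.05 there were 17 members (25.0%), 6 higher and 11 lower in knockout, against 16.5% of all tested genes. The median log2 fold change (knockout minus wildtype throughout) was 0.005 over the members and 0.001 over all tested genes, with 35 members above 0 and 33 below.

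The measurements were precise enough to bound the differences. The standard error of a member's log2 fold change had a median of 0.07. For 62 of the 68 members, the 95% interval of the difference lay wholly within a 1.5-fold change in either direction, which held for 63.9% of all tested genes. Among genes with a mean of at least 1 CPM it held for 62 of 64 members (96.9%) and for 85.3% of all. Intervals are for each gene on its own, without adjustment for the number of genes. The 6 members whose interval reached past 1.5-fold were Epha2 and 5 genes of low counts, Epha1, Ntn1, Plxnb3, Sema3c and Slit3. Ntn5, a netrin, was not tested, with 3 counts in knockout pool 5 and 0 in the other 8 pools.

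**Figure D1:**
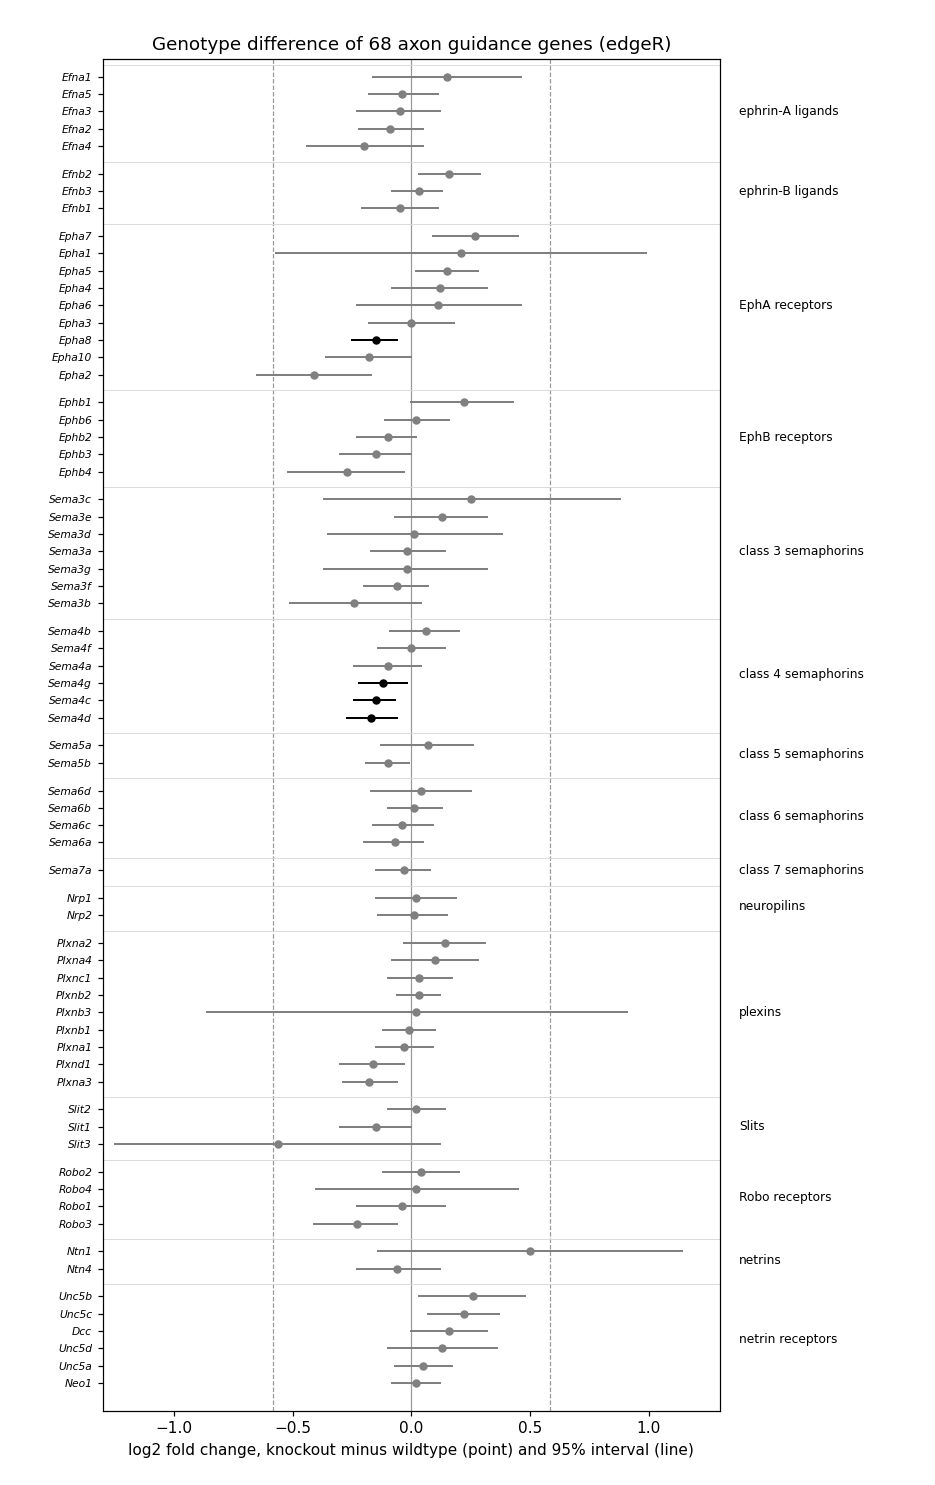
Log2 fold change of each of 68 tested guidance genes (x axis, knockout minus wildtype, with its 95% interval) by family (y axis); dashed lines mark a 1.5-fold change and black marks the 4 genes whose pools did not overlap between genotypes. Points lie on both sides of 0, from -0.56 (Slit3) to 0.50 (Ntn1), and 62 intervals stay between the dashed lines.

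Levels of different genes were compared only in transcripts per 1e6 transcripts (TPM), which corrects for length. By this measure 65 of the 69 members had a mean of at least 1 TPM over the 9 pools, 42 reached 10 TPM and 2 reached 100 TPM. The highest were Epha8, an EphA receptor, at 125.7 TPM, Sema3f, a secreted ligand of neuropilin-2, at 105.9 TPM, and the receptor Plxnb2 at 88.3 TPM. Robo2 (80.1 TPM), Plxnb1 (79.5 TPM), Ephb2 (65.3 TPM) and Epha5 (60.8 TPM) followed. Slit3, Epha1, Plxnb3 and Ntn5 lay under 1 TPM. For sums, plexins of all classes were kept together, while Eph receptors were split into EphA and EphB and semaphorins by class. The rank of a family depends on this unequal grouping. Grouped so, plexins gave the most transcript, with 325 to 360 TPM in each pool, and netrins the least, with 6.90 to 9.54 TPM. The 6 netrin receptors summed to 85.2 to 101 TPM. The netrin Ntn3 has transcript rows (4.64 TPM) but no row in the count table, and is not among the members.

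**Figure D2:**
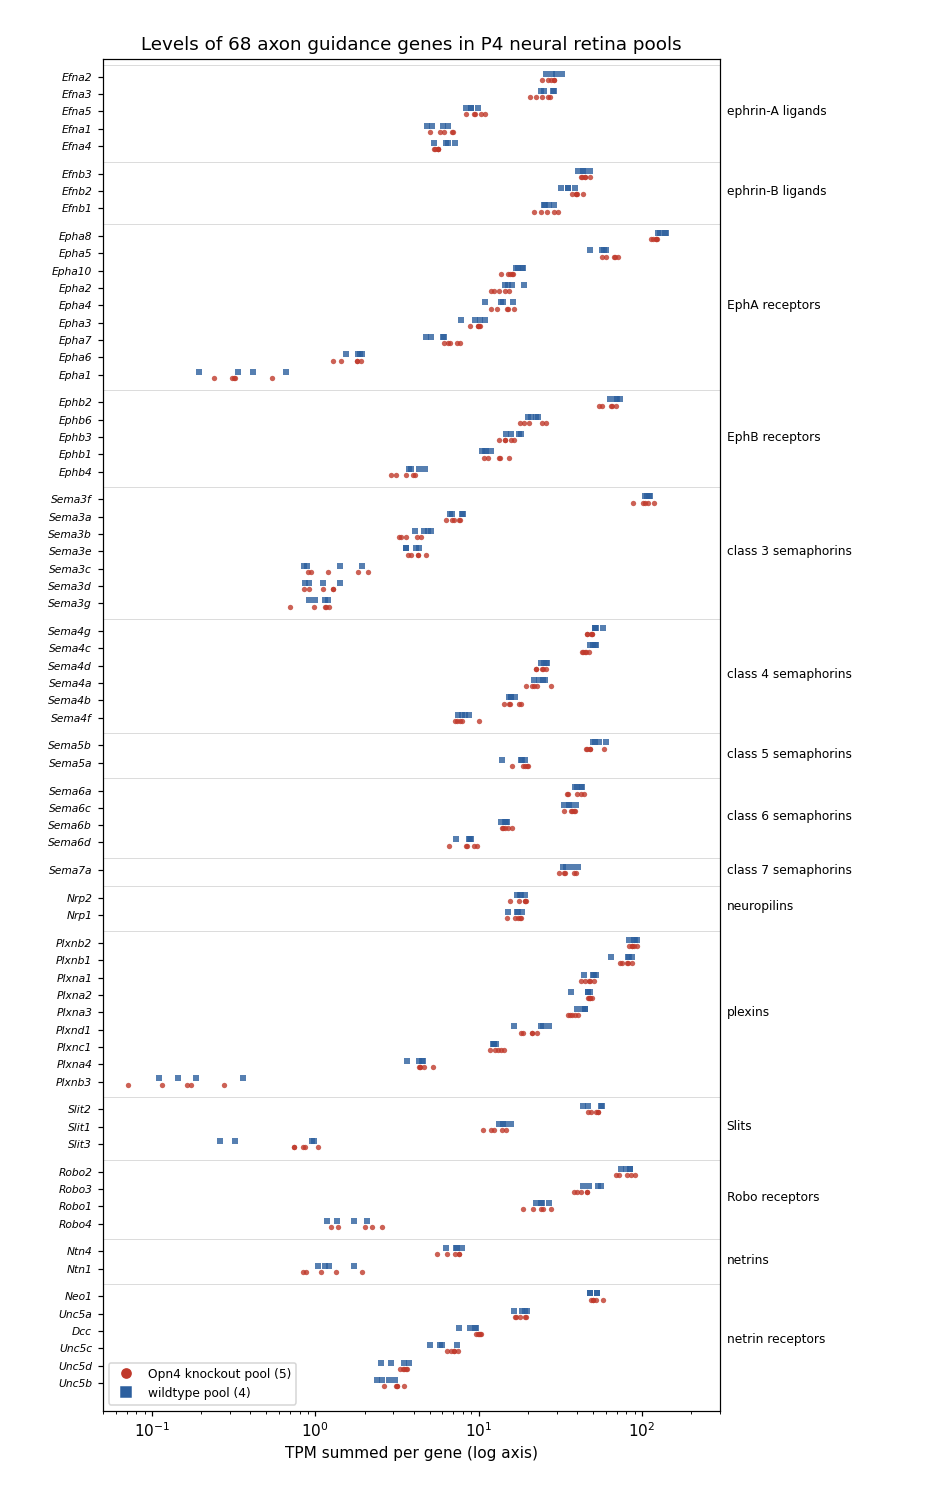
TPM of 68 guidance genes (x axis, log scale) in each of 5 knockout pools (red circles) and 4 wildtype pools (blue squares), grouped by family; Ntn5 is left out because it was at 0 in some pools. Levels span from under 1 TPM (Plxnb3, Epha1, Slit3) to over 100 TPM (Epha8, Sema3f). The TPM ranges of the genotypes overlap for 62 of the 68 genes, and the share over all genes was not taken.

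Promoters were looked at for a feature shared by members that differ so widely in level. Windows from 250 bases before to 50 bases after the start were taken from RefSeq (GRCm38.p6), which matched 59 of the 69 members; those unmatched were Dcc, Efnb3, Ntn1, Plxna1, Plxna4, Sema3b, Sema3f, Sema6a, Slit1 and Unc5d. A promoter was called CpG-rich at an observed to expected CpG ratio of at least 0.6 with at least 50% G and C. This held for at least 1 start of 39 of the 59 members (66.1%) and of 36.0% of all 27025 genes in the table. The motif TATAAA, searched on both strands, was found for Efnb2 and Slit2 (3.4% of members, 15.7% of all genes). Members with a CpG-rich promoter had a median of 21.5 TPM (range 0.748 to 125.7) and the other 20 a median of 6.54 TPM (0.0678 to 80.1), given as a description. As examples, windows are shown for Epha8, the most abundant member and the one with the most CpGs, for Robo4, a receptor of endothelium at 1.75 TPM and 1 of 3 members with a window of 2 CpGs (with Sema3a and Sema4d), and for Epha2, an EphA receptor with the largest count difference among members above 1 CPM. Bases are in lower case and each CpG in capitals. The Epha8 window (chr4:136956767-136957066, minus strand) holds 56 CpGs, that of Epha2 (chr4:141300971-141301270, plus strand) 10, and that of Robo4 (chr9:37401722-37402021, plus strand) 2.
Epha8: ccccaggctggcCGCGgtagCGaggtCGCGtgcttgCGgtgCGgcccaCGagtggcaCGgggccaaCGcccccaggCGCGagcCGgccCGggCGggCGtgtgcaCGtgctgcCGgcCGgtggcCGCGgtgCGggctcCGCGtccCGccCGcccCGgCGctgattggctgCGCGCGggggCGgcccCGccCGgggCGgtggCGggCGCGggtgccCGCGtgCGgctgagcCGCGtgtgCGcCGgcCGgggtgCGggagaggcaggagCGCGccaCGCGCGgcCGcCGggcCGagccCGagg
Epha2: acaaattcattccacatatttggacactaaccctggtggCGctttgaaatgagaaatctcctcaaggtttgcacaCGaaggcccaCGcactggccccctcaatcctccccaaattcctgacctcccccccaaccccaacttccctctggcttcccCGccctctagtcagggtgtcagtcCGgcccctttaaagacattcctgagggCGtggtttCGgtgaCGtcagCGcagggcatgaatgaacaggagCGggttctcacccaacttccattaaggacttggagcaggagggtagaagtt
Robo4: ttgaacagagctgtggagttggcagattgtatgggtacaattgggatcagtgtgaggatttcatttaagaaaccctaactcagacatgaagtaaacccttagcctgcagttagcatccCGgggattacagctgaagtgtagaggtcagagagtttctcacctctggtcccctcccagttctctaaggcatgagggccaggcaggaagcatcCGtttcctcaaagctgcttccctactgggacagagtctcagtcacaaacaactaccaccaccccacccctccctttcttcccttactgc

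Among the ligands of Eph receptors, Efna2 and Efnb3 were the most abundant of their classes, and 0 of 8 ephrins passed the test. Efna2 and Efna5, which repel temporal ganglion cell axons in the brain, measured 31.0 ± 1.7 and 17.6 ± 0.71 CPM (SD, n = 5) in knockout and 33.0 ± 2.0 and 18.1 ± 1.4 CPM (SD, n = 4) in wildtype. Their log2 fold changes were -0.09 and -0.04 (edgeR adjusted p = 0.538 and 0.860). Efnb2, a ligand of dorsal retina and of arteries, measured 102, 104, 109, 108 and 120 CPM in knockout pools 1 to 5 and 98.4, 107, 93.5 and 90.1 CPM in wildtype pools 1 to 4. The wildtype value of 107 CPM lay within the knockout range, and the difference did not pass the test (log2 fold change 0.16, SE 0.06, edgeR adjusted p = 0.195). Efnb1, also a dorsal ligand, and Efnb3 had log2 fold changes of -0.05 and 0.03.

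Among members above 1 CPM, the Eph receptors held the largest single difference of the count table in each direction (in TPM, Sema3b at -0.28 lay below Epha2). Of 14 Eph receptors, 0 passed the test, beside 3.59% of all tested genes. At an unadjusted p under 0.05 (edgeR) there were 6, beside 16.5% of all tested genes. Several families were looked at, so no excess is read from this count. Epha8 measured 337, 311, 315, 337 and 323 CPM in the knockout pools and 341, 357, 365 and 382 CPM in the wildtype pools. All knockout pools lay below all wildtype pools, by a log2 fold change of -0.15 (SE 0.04, 95% interval -0.25 to -0.06, edgeR adjusted p = 0.0828). Epha8 lies on chromosome 4 (136929419 to 136956816, minus strand, GRCm38). Epha2, an ephrin-A receptor also required in the lens, measured 19.9, 22.5, 23.4, 25.7 and 28.7 CPM in knockout and 28.8, 28.2, 38.4 and 32.5 CPM in wildtype. Knockout pool 5 overlapped the wildtype range and wildtype pool 3 was the highest of all. The pair of lowest values came from knockout pools 1 and 2, the same pools in which crystallins were highest, and the log2 fold change was -0.31 without them. These pools also had the highest rod list levels (0.51 and 0.48), and a part of tissue or cell makeup in the Epha2 difference was not tested. With all pools, the log2 fold change of -0.41 (SE 0.11, 95% interval -0.65 to -0.17) had an edgeR adjusted p of 0.0621 and stands for a level 24.8% lower in knockout. The other readouts gave smaller differences for Epha2: the log2 fold change was -0.25 in TPM (limma adjusted p = 0.266) and -0.20 in the authors' deposited table.

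Epha7, a receptor of ephrin-A with a role in retinocollicular mapping, had the largest positive difference of the count table among members above 1 CPM. It measured 20.3, 19.2, 16.0, 19.0 and 17.3 CPM in knockout and 16.9, 14.5, 14.2 and 15.3 CPM in wildtype, with overlap at knockout pool 3 (log2 fold change 0.27, SE 0.08, edgeR adjusted p = 0.102). Epha5, the second most abundant EphA receptor, gave 195 ± 10.3 CPM (SD, n = 5) and 176 ± 14.9 CPM (SD, n = 4), with an edgeR adjusted p of 0.210. Epha6, a low receptor at 1.71 TPM, had a log2 fold change of 0.11 (SE 0.16).

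Of the EphB receptors, Ephb2, which is graded towards ventral retina, measured 232 ± 18.6 CPM in knockout (SD, n = 5) and 250 ± 10.9 CPM in wildtype (SD, n = 4; log2 fold change -0.10, edgeR adjusted p = 0.406). Ephb1, the receptor of ganglion cells whose axons stay on their own side of the brain, measured 26.3, 26.9, 33.0, 31.7 and 37.7 CPM in knockout and 25.4, 28.2, 24.6 and 29.0 CPM in wildtype. Its 3 highest pools were knockout pools, but knockout pools 1 and 2 lay inside the wildtype range (log2 fold change 0.22, SE 0.10, edgeR adjusted p = 0.306).

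Class 4 semaphorins, membrane-bound ligands of plexin-B receptors, supplied 3 of the 4 members whose knockout and wildtype pools did not overlap in CPM, all lower in knockout. In TPM 6 members lay apart, Sema4c, Sema4g, Epha8 and Epha10 lower and Dcc and Epha7 higher in knockout. The share of all genes lying apart in TPM was not taken, so no excess is read from this count. Sema4c, a ligand of plexin-B2, measured 69.5, 68.6, 71.1, 68.1 and 73.2 CPM in knockout and 79.1, 80.1, 75.8 and 76.3 CPM in wildtype. Its log2 fold change was -0.15 (SE 0.04, 95% interval -0.24 to -0.07), with the smallest edgeR adjusted p of any member, 0.0572. Sema4d, the ligand of plexin-B1, measured 40.5, 41.4, 44.2, 40.1 and 43.3 CPM in knockout and 48.3, 45.3, 46.3 and 48.2 CPM in wildtype (log2 fold change -0.17, SE 0.05, edgeR adjusted p = 0.0842). In TPM the Sema4d pools overlapped, and the log2 fold change was -0.08 (limma adjusted p = 0.545), beside -0.10 in the authors' deposited table. Sema4g measured 122.7, 118.7, 107.1, 119.5 and 117.5 CPM in knockout and 126.5, 125.2, 123.3 and 133.8 CPM in wildtype, where knockout pool 1 came within 1 CPM of wildtype pool 3 (log2 fold change -0.12, SE 0.05, edgeR adjusted p = 0.205). The count of 4 non-overlapping members is 5.88% of those tested, beside 8.29% of all tested genes, and 4.37% of all tested genes lay apart with knockout lower. The other class 4 members, Sema4a, Sema4b and Sema4f, had log2 fold changes between -0.10 and 0.06. Sema4c lies on chromosome 1 (36548639 to 36558349, minus strand, GRCm38), where 7.27% of its exon bases overlap an antisense gene, and whether counting used strand is not given in these sources.

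**Figure D3:**
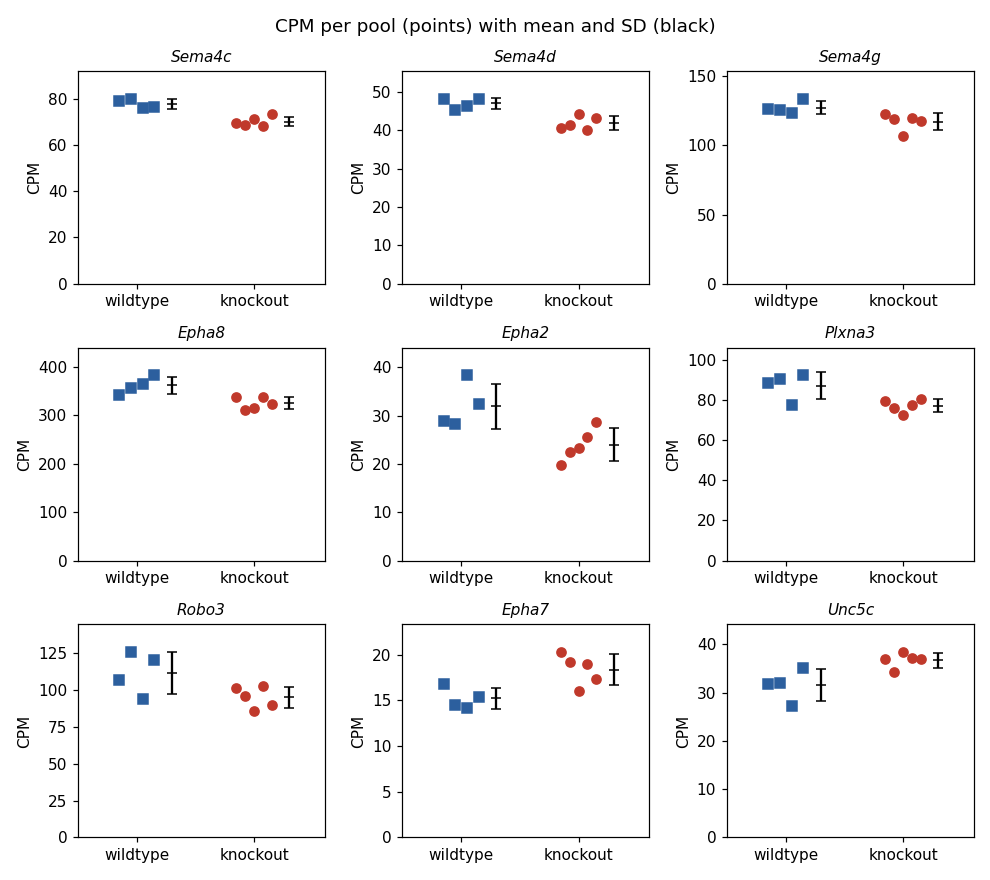
CPM of 9 guidance genes (y axes, from 0) in each wildtype pool (blue squares) and knockout pool (red circles), with mean ± SD in black. Sema4c, Sema4d, Sema4g and Epha8 show no overlap between genotypes, and the other 5 overlap by at least 1 pool.

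Of the 7 secreted class 3 semaphorins, 0 reached an unadjusted p under 0.05 (edgeR), beside 16.5% of all tested genes. Sema3f, the most abundant, measured 109 ± 10.5 CPM in knockout (SD, n = 5) and 114 ± 1.92 CPM in wildtype (SD, n = 4; edgeR adjusted p = 0.671). Sema3g is the sole member on chromosome 14 with Opn4, 3.37 Mb from it, and had a log2 fold change of -0.02 (SE 0.16). Among the transmembrane ligands of the inner plexiform layer, Sema5a and Sema5b, which repel neurites through plexins A1 and A3, had log2 fold changes of 0.07 and -0.10 (edgeR adjusted p = 0.779 and 0.252). Sema6a, a partner of plexins A2 and A4 there, and Sema6d, a midline cue for crossing axons, measured -0.07 and 0.04. Sema7a, a membrane-anchored semaphorin, measured -0.03.

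Of the semaphorin receptors, Plxna3 measured 79.3, 76.0, 72.2, 77.5 and 80.1 CPM in knockout and 88.3, 90.2, 77.4 and 92.1 CPM in wildtype. Wildtype pool 3 lay within the knockout range, and the other 3 wildtype pools lay above all knockout pools (log2 fold change -0.18, SE 0.05, edgeR adjusted p = 0.106). Plxna2, the receptor of starburst amacrine cells for Sema6a, measured 318, 316, 300, 308 and 297 CPM in knockout and 309, 295, 221 and 293 CPM in wildtype, with wildtype pool 3 alone apart. Its log2 fold change was 0.14 (SE 0.08) with all pools and 0.041 without that pool. Plxna1 and Plxna4 measured -0.03 and 0.10, and Plxnb2, the most abundant plexin, 0.03 (SE 0.04, 95% interval -0.06 to 0.12). Nrp1, coreceptor of class 3 semaphorins and of the vascular growth factor VEGF, and Nrp2 measured 0.02 and 0.01 (edgeR adjusted p = 0.944 and 0.976).

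Slits and Robo receptors, which keep ganglion cell axons on course within the retina and at the midline, also held 0 calls. Slit2 and Slit1 had log2 fold changes of 0.02 and -0.15 (edgeR adjusted p = 0.890 and 0.306). For Slit3, at 13 to 43 counts a pool, the tables disagreed in order: CPM was lower in knockout (log2 fold change -0.56, SE 0.32), while TPM was 0.741 to 1.03 in knockout and 0.261 to 0.981 in wildtype. Robo2, the most abundant Robo receptor, measured 204, 209, 247, 235 and 254 CPM in knockout and 230, 231, 196 and 236 CPM in wildtype, and the wildtype pools other than pool 3 lay inside the knockout range (log2 fold change 0.04, SE 0.07). Robo1 had 74.1 and 72.6 CPM in knockout pools 1 and 2 against 79.9 to 98.1 CPM in the other 7 pools, and a log2 fold change of -0.04. Robo3, which lets commissural axons cross the midline, measured 101, 95.7, 85.8, 103 and 89.8 CPM in knockout and 107, 126, 93.9 and 120.5 CPM in wildtype, with overlap at wildtype pool 3 (log2 fold change -0.23, SE 0.08, edgeR adjusted p = 0.154).

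All 6 netrin receptors had a log2 fold change above 0 in the count table, from 0.02 to 0.26, and 0 passed the test. The shared direction did not hold elsewhere: Unc5a was at -0.04 in TPM and at -0.06 in the authors' deposited table, and Neo1 was below 0 without any 1 of 3 pools (knockout pool 5, wildtype pools 2 and 3). Unc5c, a receptor for repulsion by netrin, measured 36.9, 34.2, 38.4, 37.2 and 37.0 CPM in knockout and 31.8, 32.0, 27.3 and 35.2 CPM in wildtype, with overlap between knockout pool 2 and wildtype pool 4 (log2 fold change 0.22, SE 0.07, edgeR adjusted p = 0.120). Dcc, the receptor for attraction, measured 63.4, 63.8, 58.2, 59.3 and 59.4 CPM in knockout and 58.0, 59.4, 45.0 and 55.7 CPM in wildtype, and wildtype pool 3 was the lowest of all. Its log2 fold change of 0.16 (SE 0.07) had an edgeR adjusted p of 0.299, and without that pool the log2 fold change was 0.076. Neo1, the most abundant of the group and also the receptor of repulsive guidance molecules, measured 0.02 (SE 0.05). Ntn1, the netrin of the optic disc, was low at 34 to 83 counts a pool, with 0.745 ± 0.24 CPM in knockout (SD, n = 5) and 0.526 ± 0.14 CPM in wildtype (SD, n = 4). Its interval, -0.14 to 1.14, reached past a 2-fold rise. In TPM Ntn1 ran the other way, at 1.22 ± 0.45 in knockout (SD, n = 5) and 1.28 ± 0.31 in wildtype (SD, n = 4), with a log2 fold change of -0.07. Ntn4, the most abundant netrin, had a log2 fold change of -0.06 (SE 0.08).

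The members' extremes were unevenly spread over the pools. Of 57 members with a mean of at least 5 CPM, wildtype pool 3 was the lowest wildtype pool for 30 and the highest for 12. It lay more than 0.25 below the mean of all pools on the log2 scale for 9 members, Plxna2, Sema5a, Unc5d, Dcc, Unc5b, Unc5c, Plxna4, Epha4 and Epha5, and as far above it for Epha2, Ephb4, Sema3b and Ephb3. No other pool passed that distance below the mean for more than 3 members. This is the pool with the highest red blood cell list, and a part of that in these values was not tested. In knockout, pool 5 was the highest knockout pool for 33 of the 57 members, and pools 1 and 2 were the lowest for 20 and 17. The shares of all genes with such extremes in these pools were not taken, so no trait of the guidance genes is read from these counts. The rod list stood at 0.51 and 0.48 in knockout pools 1 and 2 and at -0.11 in knockout pool 5, and the progenitor list at -0.33, -0.31 and -0.04; the part of cell makeup in the members' values was not tested. Markers of endothelium and pericytes, cells that also use guidance receptors, were 0 of 16 called (edgeR, beside 3.59% of all genes). Of these markers, 2 are members (Robo4 and Plxnd1). The summed levels were 532 to 585 CPM in knockout and 504 to 570 CPM in wildtype.

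**Figure D4:**
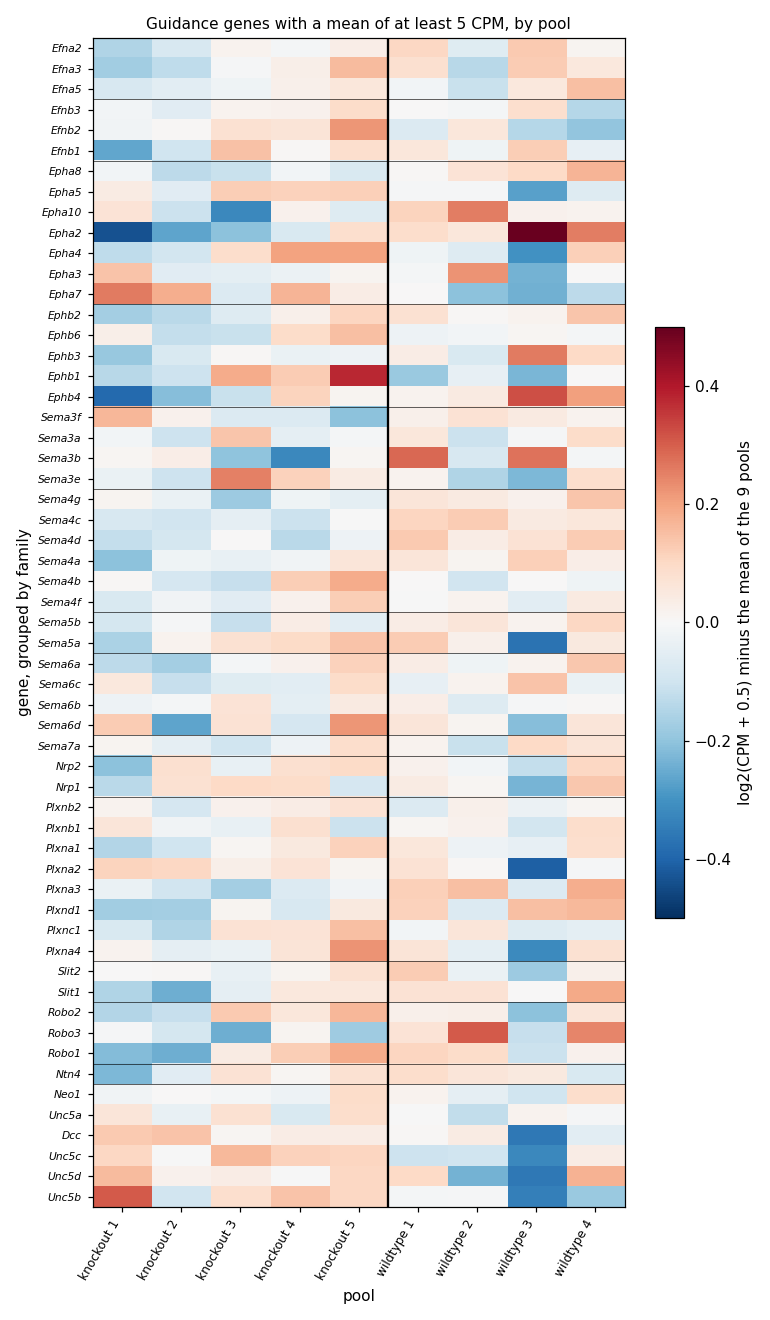
Each pool's log2(CPM + 0.5) minus the mean of the 9 pools (colour) for 57 guidance genes with a mean of at least 5 CPM (rows, by family) in 5 knockout and 4 wildtype pools (columns). Wildtype pool 3 runs from -0.407 for Plxna2 to 0.495 for Epha2, and the lowest value of all is -0.437 for Epha2 in knockout pool 1.

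A few members passed under other settings. With upper-quartile scaling edgeR called Sema4c (beside 3.63% of all genes), and with genes of at least 1 CPM alone it called Sema4c and Epha2 (beside 5.45%), all lower in knockout. DESeq2 called 8 of the 64 members to which it gave an adjusted p (12.5%), beside 9.08% of all genes: Sema4c, Sema4d, Epha8, Epha2, Robo3 and Plxna3 as lower and Epha7 and Unc5c as higher. Of these, Epha2, Robo3, Plxna3, Epha7 and Unc5c are named for that call, after their values were seen. Without wildtype pool 3, edgeR called Plxna3, Robo3 and Sema4c as lower (adjusted p = 0.0113, 0.0300 and 0.0484), beside 2.96% of all genes. Without knockout pool 5 it called Sema4c and Epha2 (adjusted p = 0.0358 and 0.0220), beside 4.11%. With knockout pools 1 and 2 both left out, edgeR called 0 of 68 members, beside 2.27%, and Epha2 had an edgeR adjusted p of 0.235. Over all alternatives the edgeR or DESeq2 adjusted p of Sema4c ran from 0.00930 to 0.177 and that of Epha2 from 0.00495 to 0.235.

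**Figure D5:**
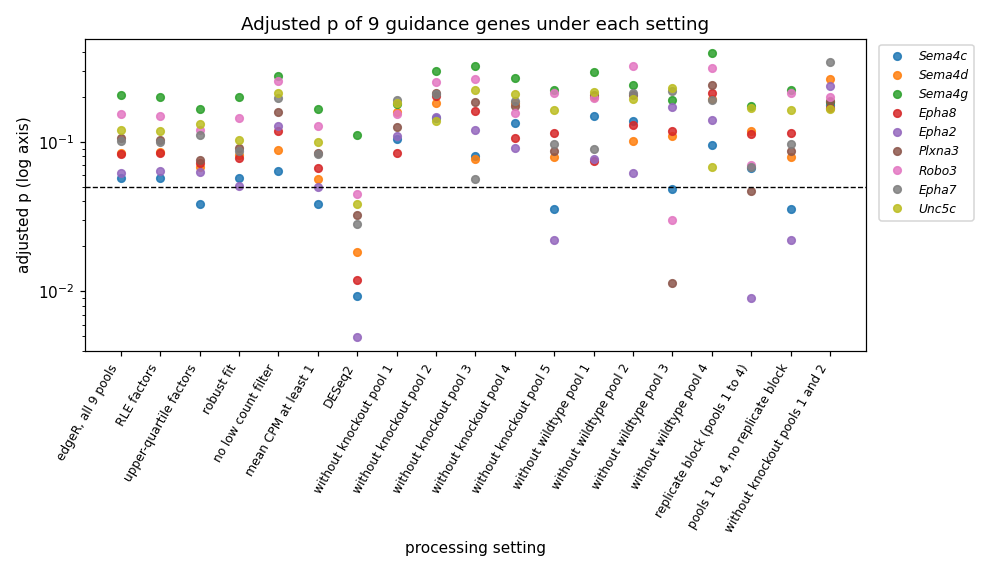
Adjusted p (y axis, log scale) of 9 guidance genes under each processing setting (x axis), with a dashed line at 0.05. In the column labelled edgeR, all 9 pools (TMM factors and the standard filter), every point is above the line, with DESeq2 8 of 9 are below it, and elsewhere at most 3 fall below.

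The transcript table gave the same count. Of 65 members with at least 1 TPM in at least 4 pools, 0 were called on gene sums (limma adjusted p under 0.05), beside 2.16% of all genes. At an unadjusted p under 0.05 there were 11 (16.9%). The share of all genes at that unadjusted threshold was not taken for TPM, so no excess is read from it. In the authors' deposited table, 0 of 68 members had a q under 0.05, beside 1.46% of all its genes, and 13 had a p under 0.05 (19.1%, beside 11.6%). The smallest q of a member in the authors' deposited table was 0.118, for Dcc. These tables come from the same libraries and are no independent check. Transcript rows add a view of isoforms, although the rows carry no transcript identifiers. The 69 members had 420 rows, from 1 (Epha8, Efna2, Efnb3 and others) to 23 (Slit2). Among the 65 members with at least 1 TPM, a single row held at least 90% of the transcript for 18 and less than 50% for another 18. Of 194 rows tested, 0 were called, beside 0.176% of all rows. The smallest adjusted p, 0.118, belonged to a minor Ephb2 row at 0.445 to 0.750 TPM in knockout and 1.24 to 2.42 TPM in wildtype, with no overlap.

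Downstream and partner genes were measured from a fixed list of 50 effectors and coreceptors, among them the chimaerins, collapsin response mediators, Slit-Robo GTPase activators and cell adhesion molecules. Of these, 1 was higher and 0 lower in knockout (edgeR, beside 3.59% of all genes), with a median log2 fold change of 0.00. Dscaml1, a cell adhesion molecule that spaces neurites of some amacrine and bipolar cells, rose from 66.5 ± 5.0 CPM (SD, n = 4) to 79.7 ± 6.2 CPM (SD, n = 5; log2 fold change 0.26, SE 0.06, edgeR adjusted p = 0.0418). All knockout pools, at 74.4 to 87.1 CPM, lay above all wildtype pools, at 60.5 to 72.0 CPM. The call was lost without any single pool among 6 of the 9, with an adjusted p of up to 0.183 without knockout pools 1 and 2. Of 15 measured factors and enzymes that set position in the retina, 1 was called, beside 3.59% of all genes. At an unadjusted p under 0.05 there were 7, beside 16.5% of all genes, and the median log2 fold change was -0.12. Some without a call moved further than the called gene, among them Aldh1a3 at -0.74 and Foxd1 at -0.62, and Tbx5 upward at 0.30. The called gene, Tbx2, a transcription factor of dorsal retina, fell from 222.5 ± 9.3 CPM (SD, n = 4) to 196 ± 9.9 CPM (SD, n = 5; log2 fold change -0.18, SE 0.05, edgeR adjusted p = 0.0489). That call was lost without any of 8 single pools, with an adjusted p of up to 0.126, and it was 0.198 without knockout pools 1 and 2.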

How the data were processed

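Poly-A RNA of 9 retina pools (5 Opn4KO, 4 Opn4WT; groups from the sample titles) was sequenced. The authors deposited whole-number counts per gene symbol with no normalization; the labels' design text names kallisto for counting, and how whole-number gene counts came from it is not stated there. The authors also deposited TPM per transcript from kallisto 0.46.1 on GRCm38 after Trimmomatic 0.39, per the submitters' processing notes. This TPM signal had been rescaled between pools, with column sums of 953963 to 1083977 in the deposited table. The authors' deposited sleuth 0.30.8 table holds p-values, q-values and effects on the natural log scale, which were put on the log2 scale and given the sign of knockout minus wildtype, read from Opn4; its error terms were not used.

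Counts were tested with edgeR 4.0.16 (filterByExpr, TMM, quasi-likelihood F test, two-sided, Benjamini-Hochberg over all tested genes, R 4.3.3). Standard errors were the log2 fold change over the root of F, and 95% intervals used the test's degrees of freedom. CPM used TMM-scaled totals. TPM was summed per symbol and tested with limma 3.58.1 on log2(TPM + 0.5), which understates changes of low genes, where at least 4 pools had at least 1 TPM. The fits were tested on simulated data. In simulated counts of all levels, edgeR called 62.7% of genes changed 1.5-fold, 62.7% of those changed 2-fold and 83.3% of those changed 3-fold. It also called 6 of 20950 unchanged genes. Positions came from GENCODE M21 (GRCm38). Where pools share a litter, p-values measure the spread between these pools only.

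The members and lists were chosen with earlier results of these data known. Genes named with values were those called, those whose pools did not overlap, the highest TPM of each family, members known for retinal mapping, untested members, and called genes of 2 lists; other genes were singled out after their values were seen. Alternatives were DESeq2 1.42.0, other scaling factors, a robust fit, other filters, other pseudocounts (0.1 and 1), leaving out pools, and the replicate number as a block. Marker lists of 11 cell types (ganglion cell, amacrine, Müller glia, astrocyte and microglia besides those in the results) were also measured. Called genes (edgeR, beside 3.59% of all genes) were 3 of 15 ganglion cell genes, all higher in knockout, though the list's median log2 fold change was -0.10. They were 3 of 10 amacrine genes, all lower, and 4 of 9 Müller glia genes, 2 higher and 2 lower. The rest were 0 of 6 astrocyte, 0 of 9 microglia, 0 of 8 pigment epithelium and 2 of 6 lens genes, both lens genes higher.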

Additional observations from a re-analysis of the deposited data

Results flagged for a closer look

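In 78 groups of 4 or 5 pools (each named gene in each genotype), 3 held a pool far from the others by Dixon's criterion, where chance flags about 1 in 20 groups. Neo1 measured 178.3 CPM in knockout pool 5, against 164 to 168 CPM in the other knockout pools. Robo2 measured 195.7 CPM in wildtype pool 3, against 230 to 236 CPM in the other wildtype pools. Epha6 measured 2.25 CPM in wildtype pool 2, against 2.70 to 2.73 CPM in the others. None of the 3 genes passed the genotype test with all pools (edgeR adjusted p = 0.912, 0.847 and 0.800).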

How the results depend on the processing

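Of 737 refits of 41 named genes, 664 kept direction and side of the threshold, 20 passed it, 19 lost it and 34 reversed, in 13 genes and to at most 0.084 on the log2 scale; causes were not tested. All genes called were 760, but 1492 with DESeq2 and 486 without knockout pools 1 and 2 (524 to 859 leaving out 1 pool). Members called were 0, but 1 with upper-quartile factors, 2 at a mean of at least 1 CPM, 8 with DESeq2, and 0 to 3 leaving out 1 pool. Effectors and coreceptors called were 1, but 3 with the robust fit, 0 with no filter, 3 at a mean of at least 1 CPM, 5 with DESeq2, 0 without knockout pools 1 and 2, and 0 to 3 leaving out 1 pool. Members called on TPM were 0 under every pseudocount, filter, left-out pool and block tried.

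The replicate numbers were not used as pairs in the main fit. Same-numbered pools had correlations of 0.008, 0.006, 0.064 and -0.038, and other pairs ran from -0.17 to 0.116. Because the litter of each pool is not given, these values cannot decide whether same-numbered pools share a litter or batch. With the replicate number as a block over pools 1 to 4, 2 members, 4 effectors and 915 genes were called, and 2, 3 and 859 in the same pools with no block. The calls differed: Epha2 and Plxna3 with the block, Epha2 and Sema4c without it; Cdon and Islr2 were gained and Farp2 lost among effectors. With and without the block, Nrp2 had log2 fold changes of -0.022 and -0.019, Neo1 -0.0061 and -0.0077, and Sema6d -0.020 and -0.017.

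Other reversals were Nrp2 at -0.0037 with upper-quartile factors and -0.0016 with no filter, and, without knockout pools 1 and 2, Ntn4 at 0.017, Efnb1 at 0.046, Robo1 at 0.084 and Plxna1 at 0.036. Leaving out 1 pool, log2 fold changes ran from -0.031 to 0.056 for Nrp2, -0.012 to 0.047 for Neo1, -0.028 to 0.070 for Slit2, -0.017 to 0.061 for Efnb3, -0.015 to 0.082 for Robo2, -0.084 to 0.0060 for Efna5, -0.096 to 0.0063 for Efnb1, -0.10 to 0.0096 for Robo1, -0.051 to 0.066 for Nrp1, -0.067 to 0.0012 for Plxna1, -0.021 to 0.11 for Sema6d and -0.030 to 0.12 for Sema5a. Ntn1, Slit3, Epha1 and Plxnb3 had 13 to 83 counts a pool, and counting error and spread between pools were not separated for them.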
